A study of Mus musculus with 12 samples.

Results

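The genes described here are 36 interferon-stimulated genes, followed in bone marrow-derived macrophages kept at low or normal oxygen with or without added lactate. They were listed by symbol as well-known targets of interferon signalling, at a time when earlier results of these data were known, and all 36 were found among the 37620 gene identifiers of the count table. The 12 RNA libraries formed 4 groups of 3. The hypoxia-lactate group was held at 1% oxygen with 25 mM sodium lactate, the hypoxia-NaCl group at 1% oxygen with 25 mM NaCl, the normoxia-lactate group at normal oxygen with 25 mM sodium lactate and the normoxia-NaCl group at normal oxygen with 25 mM NaCl. All groups were primary cultures, at day 7, from mice of the C57BL/6 background with no genetic change and no added interferon or pathogen named in the labels. Nothing in the labels ties the 3 libraries of a group to different animals or dishes, and the sex of the mice and the length of the exposure are not given. The p-values below therefore measure only the spread between these libraries, which may be technical. The study set low oxygen and lactate, features of the tumour environment, against normal oxygen and NaCl.

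Type I interferons bind a receptor of the IFNAR1 and IFNAR2 chains, and the kinases JAK1 and TYK2 then activate a complex that holds STAT2 and IRF9 and binds interferon-stimulated response elements beside target genes. The products sense viral RNA and DNA, block steps of viral growth, raise peptide loading on MHC class I or feed back on the pathway. Macrophages keep a low level of this programme without infection, which is known to depend on small amounts of interferon beta. The genes cover several roles: sensors and transcription factors of the pathway, direct antiviral effectors in the IFIT, OAS and MX families and their neighbours, GTPases and ADP-ribosyltransferases of cell-autonomous defence, and the peptide transporter Tap1.

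Promoter sequence was examined first, since shared response elements are what these genes are best known to have in common. RefSeq windows of 300 bases on GRCm38.p6, running from 250 bases before to 50 bases after an annotated start, were found for 27 of the 36 genes, which had 30 windows. The interferon-stimulated response element was searched on both strands as GAAA, any 2 bases and GAAA, and it was matched in windows of 15 genes. It lay in 53.3% of the 30 windows and in 3.44% of all 32851 windows. Those 15 genes were Bst2, Ddx58, Eif2ak2, Ifih1, Ifit1, Ifit3, Ifitm3, Igtp, Irgm1, Isg15, Oas1a, Oas3, Rsad2, Stat2 and Trim30a. The gamma-activated site searched as TTCNNNGAA was matched in 23.3% of the windows and in 8.3% of all windows. The core of the hypoxia response element, ACGTG, was matched in 6.67% of the windows, those of Igtp and Oasl2, and in 19.6% of all windows. Dhx58, Zbp1, Usp18, Oas2, Mx1, Mx2, Parp9, Parp14 and Rtp4 had no window here.

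The windows of 4 genes are printed 5′ to 3′ on the strand of the gene, with response element matches in capitals and overlapping matches run together. Bst2, Ifit3 and Rsad2 are shown because they carry a match and were lower at low oxygen in both media, and Isg15 because it carries 3 overlapping matches and did not follow them. Of the 7 genes whose low-oxygen libraries all lay lower in both media, 6 had a window and 3 of these carried a match, against 12 of the 21 other genes with a window. A match is a run of letters and not a measured binding site.
Bst2, minus strand, chr8:71537423-71537722: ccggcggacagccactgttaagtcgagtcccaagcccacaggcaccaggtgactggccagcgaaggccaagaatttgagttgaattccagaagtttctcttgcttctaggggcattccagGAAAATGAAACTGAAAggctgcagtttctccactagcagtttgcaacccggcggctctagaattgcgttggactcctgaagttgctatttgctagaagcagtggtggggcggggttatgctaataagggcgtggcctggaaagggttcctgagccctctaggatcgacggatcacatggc
Ifit3, plus strand, chr19:34583279-34583578: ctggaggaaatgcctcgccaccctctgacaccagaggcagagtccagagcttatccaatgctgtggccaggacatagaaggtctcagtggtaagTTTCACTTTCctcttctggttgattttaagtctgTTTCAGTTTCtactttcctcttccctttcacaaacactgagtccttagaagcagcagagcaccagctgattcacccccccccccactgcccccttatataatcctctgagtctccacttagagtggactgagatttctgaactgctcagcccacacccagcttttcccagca
Rsad2, minus strand, chr12:26456403-26456702: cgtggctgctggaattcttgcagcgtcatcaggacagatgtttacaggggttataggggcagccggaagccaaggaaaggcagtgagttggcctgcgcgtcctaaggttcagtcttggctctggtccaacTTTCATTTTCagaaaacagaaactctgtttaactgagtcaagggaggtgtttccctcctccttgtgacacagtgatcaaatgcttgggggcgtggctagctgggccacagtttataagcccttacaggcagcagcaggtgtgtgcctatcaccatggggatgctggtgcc
Isg15, minus strand, chr4:156200769-156201068: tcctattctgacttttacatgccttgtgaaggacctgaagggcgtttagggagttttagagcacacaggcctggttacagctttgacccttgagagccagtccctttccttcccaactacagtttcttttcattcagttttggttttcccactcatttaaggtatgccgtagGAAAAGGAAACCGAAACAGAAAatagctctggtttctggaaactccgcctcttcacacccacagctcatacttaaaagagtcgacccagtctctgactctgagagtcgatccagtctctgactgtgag
In Bst2 the capitals are 2 overlapping matches, in Ifit3 they are 2 separate matches that read TTTC first, and in Rsad2 they are 1 match that also reads TTTC first.

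Library depth ranged from 22705978 to 49885085 reads assigned to genes. Egln3, Ankrd37, Ak4, Vegfa and Slc2a1, well-known genes raised by low oxygen, were all called higher by edgeR in each comparison of low with normal oxygen. The library hypoxia-lactate 3 stood apart from the other 11: 11437 genes had at least 10 reads in it, against 13198 to 14767 elsewhere, and mitochondrial transcripts took 0.486% of its reads, against 2.04% to 4.75%. Across genes, Spearman's rho between hypoxia-lactate 3 and the rest had a median of 0.906. For the remaining 11 that median was 0.966 to 0.987, lowest in normoxia-NaCl 1. The common coefficient of variation between libraries of a group was 38.2% with all 12 libraries and 24.3% without hypoxia-lactate 3. The main results are therefore given with and without it.

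The cells carried their labelled identity: all 8 listed macrophage markers had reads in every group, and their summed level was 33206 to 48924 CPM (reads of a gene relative to the TMM-scaled total of its library) over the 12 libraries, most of it Lyz2. Single markers moved with the groups. Cd14 had 1505 to 1937 CPM in hypoxia-lactate, 1068 to 1578 CPM in hypoxia-NaCl, 997 to 1069 CPM in normoxia-lactate and 522 to 881 CPM in normoxia-NaCl libraries, and edgeR called it higher with oxygen averaged over both media and in hypoxia-lactate against normoxia-NaCl (BH-adjusted p of 0.0360 and 0.0214). Mertk had 6.19 to 16.0 CPM in hypoxia-lactate, 11.3 to 26.6 CPM in hypoxia-NaCl, 11.6 to 13.0 CPM in normoxia-lactate and 23.8 to 34.0 CPM in normoxia-NaCl libraries. For hypoxia-lactate against normoxia-NaCl its edgeR BH-adjusted p was 0.0693 with all libraries and 0.00314 without hypoxia-lactate 3, and DESeq2 called Cd14 and Itgam higher and Mertk lower there. The 7 lymphocyte markers summed to at most 0.435 CPM. Among plasmacytoid dendritic cell markers, Siglech stayed at or below 0.731 CPM and Klk1 had no reads. The sum of that list was 83.9 to 164 CPM in hypoxia-lactate, 90.5 to 95.8 CPM in hypoxia-NaCl, 65.0 to 69.6 CPM in normoxia-lactate and 62.7 to 70.8 CPM in normoxia-NaCl libraries, nearly all of it Tcf4, which other cells express too. Pacsin1, another gene of that list, had no read in hypoxia-lactate libraries and 0.217 to 0.482 CPM in hypoxia-NaCl, 0.511 to 0.583 CPM in normoxia-lactate and 0.606 to 1.05 CPM in normoxia-NaCl libraries. edgeR called it lower at low oxygen (BH-adjusted p of 0.00967), on 0 to 52 reads a library. Other genes of the list did not share this order. Ccr9 was highest in hypoxia-lactate 1, at 0.688 CPM, and Spib in hypoxia-lactate 2, at 0.863 CPM. Cox6a2 was highest in normoxia-NaCl 1, at 1.46 CPM, with 1.31 CPM in hypoxia-lactate 2. The 4 monocyte markers, mostly Ccr2, summed to 13.4 to 63.8 CPM in hypoxia-lactate, 46.6 to 61.5 CPM in hypoxia-NaCl, 33.8 to 43.7 CPM in normoxia-lactate and 20.0 to 42.3 CPM in normoxia-NaCl libraries. The 7 neutrophil markers summed to 20.7 to 40.0 CPM in the libraries numbered 2 and to 34.9 CPM in hypoxia-lactate 3, and to at most 4.89 CPM in the other libraries. In hypoxia-lactate 3 the whole sum was S100a8, and the other 6 markers had no read. In the libraries numbered 2, S100a9 had 10.5 to 18.0 CPM. The 5 fibroblast markers summed to 25.2 to 100.3 CPM, and the 5 conventional dendritic cell markers to at most 2.61 CPM. The part of these cell markers in the results below was not tested, and in bulk RNA fewer cells of a type and less RNA per cell cannot be told apart.

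Most of the interferon-stimulated genes had negative fold changes for 1% oxygen against normal oxygen, in lactate and in NaCl medium, and none passed the edgeR test for oxygen with all libraries. Counts were scaled with TMM factors and tested with edgeR's quasi-likelihood test over all 14616 genes that passed its filter on low counts, and a gene was called where its Benjamini-Hochberg (BH) adjusted p was under 0.05. Of the 36 genes, 35 were tested. Ifi44 was left out by the filter with 0 to 3 reads in hypoxia-lactate, 4 to 6 in hypoxia-NaCl, 3 to 13 in normoxia-lactate and 3 to 10 in normoxia-NaCl libraries. With oxygen averaged over both media, 28 of the 35 tested genes had a negative log2 fold change, with a median of -0.32 on the log2 scale, while over all tested genes 50.9% were negative and the median was -0.01. In that comparison edgeR called 0 of the 35, against 0.26% of all tested genes called lower and 1.12% called higher. At an unadjusted p under 0.05, 10 were lower and 0 higher, to be read beside the 6.69% of all tested genes that were lower and the 8.48% that were higher at that level. DESeq2 called 3 of them lower (Zbp1, Bst2 and Ifit3), beside 2.35% of all tested genes, and limma-voom 1 (Bst2), beside 0.356%.

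Without hypoxia-lactate 3, edgeR called 6 of the 35 lower with oxygen averaged over both media, and 3.68% of all tested genes. The genes were Zbp1, Irf7, Oas3, Rsad2, Bst2 and Tap1, and none of the 35 was called higher, against 3.91% of all tested genes. Counted by library, 7 of the 35 had every low-oxygen library below every normal-oxygen library in both media, which was 20.0% of them, against 3% of all tested genes. The 7 genes were Zbp1, Ifit2, Ifit3, Oasl2, Rsad2, Bst2 and Ifi47. No tested member lay the other way in both media, against 3.46% of all tested genes. Without hypoxia-lactate 3 the count was 11 of 35, adding Ddx58, Oas1a, Oas3 and Tap1, beside 5.52% of all tested genes.

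**Figure D1:**
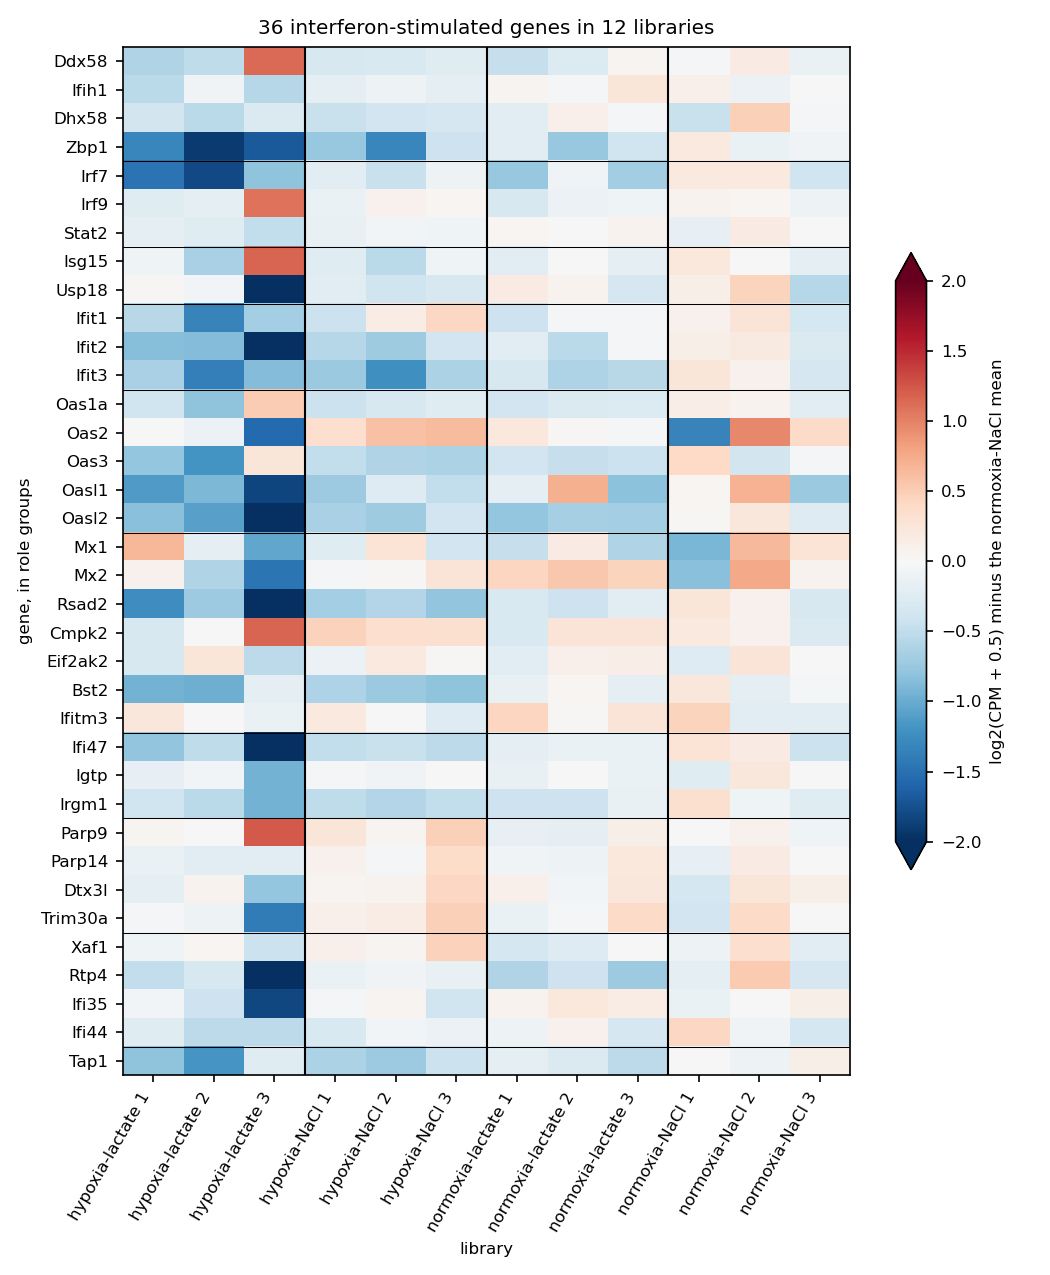
Level of each of the 36 genes (rows, in role groups) in each of the 12 libraries (columns), as log2(CPM + 0.5) minus the mean of the normoxia-NaCl libraries. Blue marks levels below that mean and red levels above it. Zbp1, Rsad2, Ifi47, Oasl2, Ifit2 and Ifit3 have the lowest means over the 6 hypoxia columns, and hypoxia-lactate 3 differs from the other columns of its group in both directions.

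Among the sensors, Zbp1 had its lowest mean where low oxygen and lactate were combined. Zbp1, which binds nucleic acids in the Z form and can start cell death, had 1.07, 0.525 and 0.712 CPM in hypoxia-lactate, 1.77, 1.06 and 2.41 CPM in hypoxia-NaCl, 2.85, 1.78 and 2.44 CPM in normoxia-lactate and 3.93, 3.03 and 3.19 CPM in normoxia-NaCl libraries. Every hypoxia-lactate library lay below every normoxia-lactate library, and every hypoxia-NaCl library below every normoxia-NaCl library. The hypoxia-lactate and hypoxia-NaCl libraries overlapped, at 1.07 CPM in hypoxia-lactate 1 and 1.06 CPM in hypoxia-NaCl 2. Hypoxia-lactate against normoxia-NaCl gave a log2 fold change of -2.13 ± 0.48 (SE), with an edgeR BH-adjusted p of 0.0488. That call was lost in 15 of 22 alternatives, over which the adjusted p ran from 0.000102 with DESeq2 to 0.501, while the fold change ran only from -2.46 to -1.91. Leaving out any 1 library other than hypoxia-lactate 1 or hypoxia-lactate 3 ended the call, with an adjusted p of 0.0596 to 0.148 in edgeR. The oxygen effect, by which is meant from here on the log2 fold change of low over normal oxygen averaged over both media with its SE, was -1.28 ± 0.33 with all libraries and -1.26 ± 0.30 without hypoxia-lactate 3, with edgeR BH-adjusted p of 0.0881 and 0.0254.

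Ddx58, which encodes the RNA sensor RIG-I, had 19.4, 20.7 and 66.0 CPM in hypoxia-lactate, 23.9, 24.2 and 25.2 CPM in hypoxia-NaCl, 21.6, 24.5 and 31.1 CPM in normoxia-lactate and 29.2, 33.5 and 27.2 CPM in normoxia-NaCl libraries. Both media were lower at low oxygen except in hypoxia-lactate 3, which held the highest value of all 12. Its effect of oxygen averaged over both media was 0.08 ± 0.28 with all libraries and -0.33 ± 0.12 without hypoxia-lactate 3 (edgeR BH-adjusted p of 0.930 and 0.105), so its direction turned on that library. Ifih1, the RNA sensor MDA5, and Dhx58, its relative LGP2, had oxygen effects of -0.32 ± 0.16 and -0.41 ± 0.19 with all libraries and -0.28 ± 0.12 and -0.44 ± 0.16 without hypoxia-lactate 3, and neither was called.

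Of the transcription factors, Irf7 was lowest where low oxygen and lactate were combined. Irf7, which drives the amplifying wave of interferon alpha genes, had 3.75, 2.89 and 6.29 CPM in hypoxia-lactate, 9.77, 8.23 and 10.5 CPM in hypoxia-NaCl, 6.49, 10.7 and 6.78 CPM in normoxia-lactate and 13.1, 13.1 and 8.53 CPM in normoxia-NaCl libraries. All hypoxia-lactate libraries lay below every library of the other groups, and the hypoxia-NaCl libraries overlapped those of normoxia-NaCl. For hypoxia-lactate against normoxia-NaCl the log2 fold change was -1.43 ± 0.37 with all libraries and -1.79 ± 0.30 without hypoxia-lactate 3, with edgeR BH-adjusted p of 0.0731 and 0.00525. Without that library the lactate effect averaged over both oxygen levels was -1.02 ± 0.19 (edgeR BH-adjusted p of 0.0490), and it was -0.84 ± 0.26 with all libraries (edgeR BH-adjusted p of 0.573). Without that library Irf7 was the 1 gene of the 35 called for lactate, beside 0.133% of all tested genes called lower. Over 22 alternatives its adjusted p ran from 0.0147 to 0.962.

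Stat2, a subunit of the complex that binds interferon-stimulated response elements, had 63.4, 61.5 and 51.6 CPM in hypoxia-lactate, 66.0, 69.8 and 68.8 CPM in hypoxia-NaCl, 75.0, 73.4 and 76.2 CPM in normoxia-lactate and 65.3, 81.6 and 72.7 CPM in normoxia-NaCl libraries. The 3 hypoxia-lactate libraries lay below those of normoxia-lactate, and the NaCl groups overlapped. Its oxygen effect was -0.23 ± 0.11 with all libraries and -0.19 ± 0.09 without hypoxia-lactate 3, and neither passed (edgeR BH-adjusted p of 0.368 and 0.217). Irf9, a DNA-binding subunit of the same complex, had an oxygen effect of 0.27 ± 0.21 with all libraries and -0.02 ± 0.09 without hypoxia-lactate 3, and was not called in either.

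The ISG15 system did not separate by oxygen. Isg15, a ubiquitin-like modifier attached to other proteins, had 5.09, 3.30 and 12.8 CPM in hypoxia-lactate, 4.51, 3.57 and 5.08 CPM in hypoxia-NaCl, 4.58, 5.37 and 4.73 CPM in normoxia-lactate and 6.35, 5.40 and 4.65 CPM in normoxia-NaCl libraries. Hypoxia-lactate 3 was the highest of all 12 libraries, and the remaining values overlapped between groups. For Isg15 the oxygen effect was 0.10 ± 0.32 with all libraries and -0.27 ± 0.19 without hypoxia-lactate 3 (edgeR BH-adjusted p of 0.918 and 0.393). Usp18, which removes ISG15 and damps the receptor, had 2.79, 2.59 and 0 CPM in hypoxia-lactate, 2.24, 1.96 and 2.09 CPM in hypoxia-NaCl, 3.10, 2.88 and 2.07 CPM in normoxia-lactate and 3.02, 3.87 and 1.68 CPM in normoxia-NaCl libraries. It had no read in hypoxia-lactate 3, where the limit that a count of 0 allows is 0.178 CPM, and its oxygen groups overlapped in both media. Its oxygen effect was -0.50 ± 0.61 with all libraries and -0.22 ± 0.25 without hypoxia-lactate 3, and neither passed the test.

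All 3 IFIT genes, which neighbour each other on chromosome 19 and bind viral RNA, had negative oxygen effects, and edgeR called none of them with oxygen averaged over both media, with or without hypoxia-lactate 3. Ifit2 had 2.89, 2.85 and 0.475 CPM in hypoxia-lactate, 3.61, 3.23 and 4.18 CPM in hypoxia-NaCl, 4.79, 3.73 and 5.51 CPM in normoxia-lactate and 6.12, 6.43 and 4.52 CPM in normoxia-NaCl libraries. Ifit3 had 2.41, 1.28 and 2.02 CPM in hypoxia-lactate, 2.24, 1.46 and 2.44 CPM in hypoxia-NaCl, 3.18, 2.49 and 2.62 CPM in normoxia-lactate and 4.94, 4.37 and 3.13 CPM in normoxia-NaCl libraries. In both genes every low-oxygen library lay below every normal-oxygen library of the same medium. For oxygen averaged over both media the log2 fold change was -0.89 ± 0.37 for Ifit2 and -0.78 ± 0.29 for Ifit3, with edgeR BH-adjusted p of 0.277 and 0.233. Without hypoxia-lactate 3, which held the lowest Ifit2 value, they were -0.67 ± 0.19 and -0.80 ± 0.25, with edgeR BH-adjusted p of 0.0506 and 0.0732. Ifit1 had an oxygen effect of -0.40 ± 0.32 with all libraries and -0.45 ± 0.29 without hypoxia-lactate 3. Ifit3 is given in full because its values were seen not to overlap, and reads from its near copy Ifit3b cannot be told apart with certainty.

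The OAS family genes lie on chromosome 5 and encode enzymes, or relatives of enzymes, that make the oligoadenylates which activate RNase L. Oas3, the most abundant of them per length in normoxia-NaCl, had 155, 115 and 312 CPM in hypoxia-lactate, 189, 174 and 170.5 CPM in hypoxia-NaCl, 204, 193 and 197 CPM in normoxia-lactate and 349, 205 and 261 CPM in normoxia-NaCl libraries. Apart from hypoxia-lactate 3, every low-oxygen library lay below every normal-oxygen library of its medium. For Oas3 the oxygen effect was -0.58 ± 0.14 without that library (edgeR BH-adjusted p of 0.0245) and -0.32 ± 0.22 with it (edgeR BH-adjusted p of 0.526). Hypoxia-lactate against normoxia-NaCl gave -1.004 ± 0.21 without it, where Oas3 was called (edgeR BH-adjusted p of 0.0150), and -0.48 ± 0.31 with it.

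Oasl2 had 17.1, 14.3 and 5.22 CPM in hypoxia-lactate, 19.5, 18.8 and 23.6 CPM in hypoxia-NaCl, 17.9, 19.3 and 19.0 CPM in normoxia-lactate and 31.6, 36.1 and 25.9 CPM in normoxia-NaCl libraries. Its groups did not overlap by oxygen in either medium nor by lactate at either oxygen level, and Rtp4 was the other gene so ordered by lactate. These 2 were 5.71% of the tested members, and 1.25% of all tested genes were lower with lactate at both oxygen levels in this way. Without hypoxia-lactate 3 they were 4 of the 35 (Oas3, Oasl2, Rtp4 and Tap1), beside 2.37% of all tested genes. Its oxygen effect was -0.61 ± 0.25 with all libraries and -0.43 ± 0.12 without hypoxia-lactate 3, the lowest of the 12, and was not called in either (edgeR BH-adjusted p of 0.270 and 0.0504). Hypoxia-lactate against normoxia-NaCl gave -1.35 ± 0.35 with all libraries and -0.99 ± 0.19 without hypoxia-lactate 3, with edgeR BH-adjusted p of 0.0752 and 0.00900.

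Oasl1, which in mice restrains translation of Irf7 mRNA, had 0.310, 0.450 and 0 CPM in hypoxia-lactate, 0.571, 0.994 and 0.772 CPM in hypoxia-NaCl, 1.06, 2.41 and 0.511 CPM in normoxia-lactate and 1.33, 2.40 and 0.567 CPM in normoxia-NaCl libraries. The hypoxia-lactate libraries lay below all of normoxia-lactate, and the NaCl groups overlapped. Its oxygen effect was -1.59 ± 0.62, the most negative of the 35, but rested on 0 to 122 reads a library and did not pass (edgeR BH-adjusted p of 0.251). Without hypoxia-lactate 3 it was -1.34 ± 0.49 (edgeR BH-adjusted p of 0.112). Oas1a and Oas2 had oxygen effects of -0.07 ± 0.20 and -0.12 ± 0.34 with all libraries and -0.31 ± 0.11 and 0.05 ± 0.28 without hypoxia-lactate 3, and reads of Oas1a may be shared with its close copy Oas1g.

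**Figure D2:**
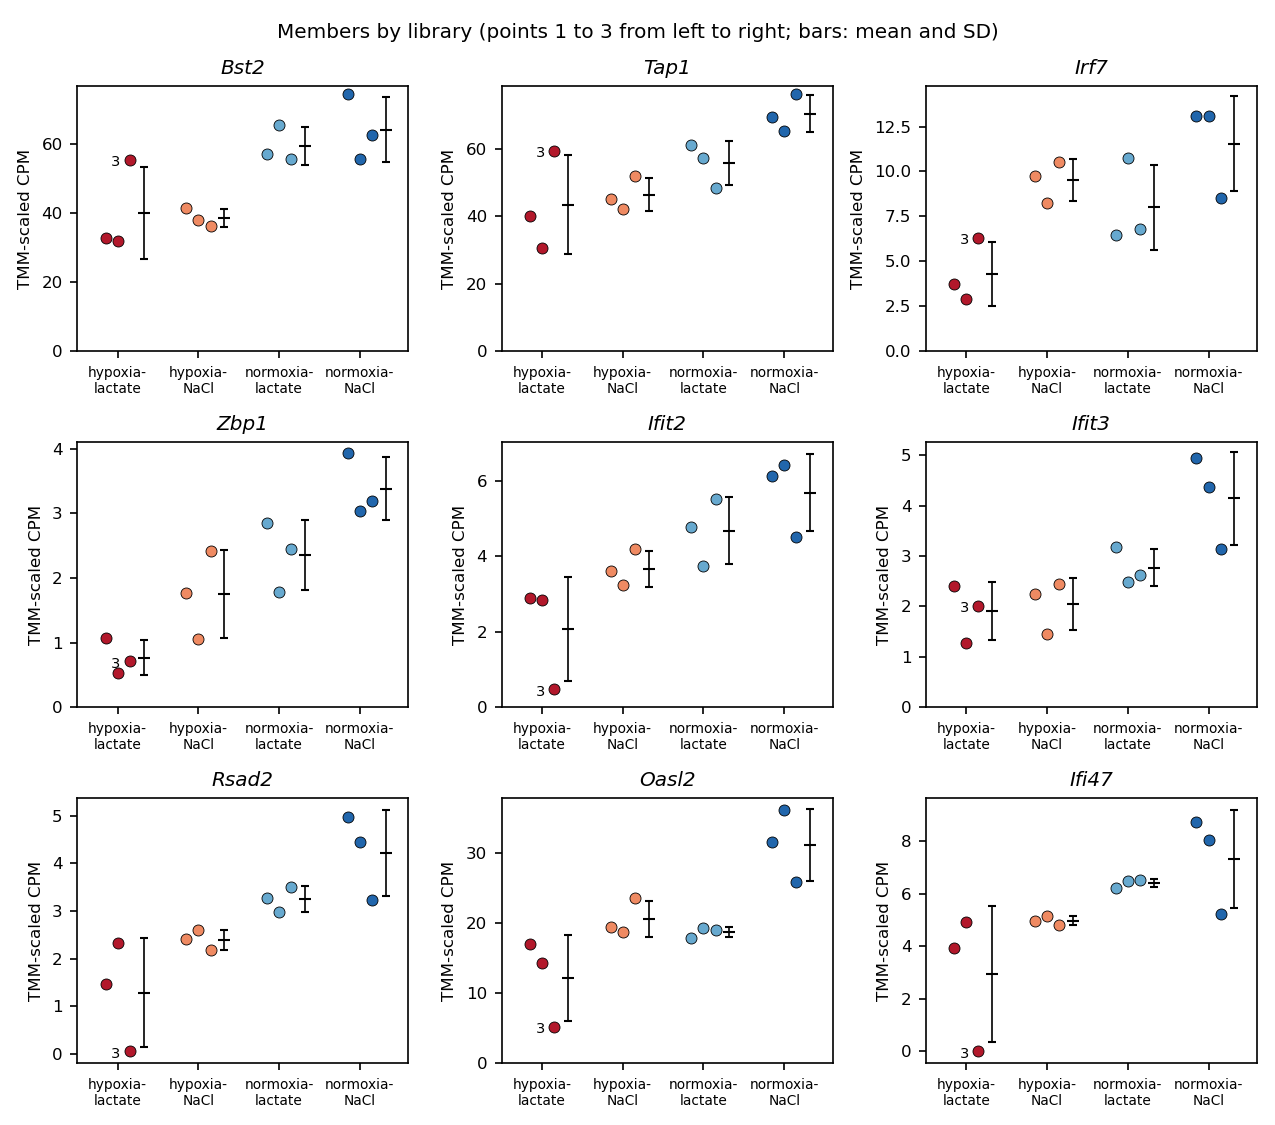
Level of 9 of the genes in each library (points, libraries 1 to 3 of a group from left to right) in TMM-scaled CPM on axes that start at or near 0, with the mean and SD of the group (bars, n = 3) beside them; the point marked 3 is hypoxia-lactate 3. Bst2 and Tap1 are low in every hypoxia library other than hypoxia-lactate 3, and Irf7 and Zbp1 have their lowest means in hypoxia-lactate.

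Of the 7 direct antiviral effectors, Bst2 gave the firmest result. Bst2, or tetherin, which holds budding virus at the cell surface and in mice also marks plasmacytoid dendritic cells, had 32.8, 32.04 and 55.5 CPM in hypoxia-lactate, 41.4, 38.1 and 36.2 CPM in hypoxia-NaCl, 57.2, 65.7 and 55.6 CPM in normoxia-lactate and 74.5, 55.6 and 62.7 CPM in normoxia-NaCl libraries. Every hypoxia library lay below every normoxia library of its medium, though hypoxia-lactate 3 lay just under the lowest of normoxia-lactate. With all libraries the oxygen effect was -0.65 ± 0.16 and was not called (edgeR BH-adjusted p of 0.0739). Without hypoxia-lactate 3 it was -0.81 ± 0.10 (edgeR BH-adjusted p of 0.000675). Bst2 was then also called in each medium taken alone, at -0.88 ± 0.16 with lactate and -0.74 ± 0.14 without it, with edgeR BH-adjusted p of 0.0190 and 0.0167. In those comparisons 0.212% and 0.557% of all tested genes were called lower.

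Rsad2, or viperin, which makes a chain-terminating nucleotide, had 1.48, 2.33 and 0.0593 CPM in hypoxia-lactate, 2.41, 2.61 and 2.19 CPM in hypoxia-NaCl, 3.27, 2.98 and 3.51 CPM in normoxia-lactate and 4.98, 4.45 and 3.23 CPM in normoxia-NaCl libraries. Low-oxygen libraries lay below normal-oxygen libraries in both media, and hypoxia-lactate 3 held 1 read. The oxygen effect was -1.06 ± 0.49 with all libraries and -0.80 ± 0.22 without that library, with edgeR BH-adjusted p of 0.332 and 0.0442. Cmpk2, the nucleotide kinase that neighbours Rsad2 on chromosome 12, did not share its order. The oxygen effect of Cmpk2 was 0.37 ± 0.30 with all libraries and 0.05 ± 0.19 without hypoxia-lactate 3, not called in either, and it was the 1 tested member whose hypoxia-NaCl libraries all lay above normoxia-NaCl, beside 12.8% of all tested genes.

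Ifitm3, which hinders virus entry from endosomes, was the most abundant member per length and had 414, 353 and 323 CPM in hypoxia-lactate, 402, 354 and 295 CPM in hypoxia-NaCl, 475, 359.6 and 422 CPM in normoxia-lactate and 483, 304 and 301 CPM in normoxia-NaCl libraries. Its groups overlapped throughout, and its oxygen effect was -0.13 ± 0.16 with all libraries (edgeR BH-adjusted p of 0.762) and -0.09 ± 0.15 without hypoxia-lactate 3. Eif2ak2, the kinase PKR that halts translation, had an oxygen effect of -0.08 ± 0.18 with all libraries and -0.0034 ± 0.14 without hypoxia-lactate 3. Mx1 and Mx2, GTPases that trap viral components, had 0 to 42 and 0 to 76 reads a library and oxygen effects of 0.04 ± 0.77 and -0.83 ± 0.62 with all libraries and 0.30 ± 0.62 and -0.57 ± 0.42 without hypoxia-lactate 3, and C57BL/6 mice are known to carry a defective Mx1.

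Immunity-related GTPases act on the vacuoles of intracellular microbes, and Irgm1, Igtp and Ifi47 lie on chromosome 11. Ifi47 had 3.92, 4.91 and 0 CPM in hypoxia-lactate, 4.95, 5.15 and 4.82 CPM in hypoxia-NaCl, 6.22, 6.50 and 6.51 CPM in normoxia-lactate and 8.73, 8.06 and 5.22 CPM in normoxia-NaCl libraries. No low-oxygen library reached a normal-oxygen library of its medium, and hypoxia-lactate 3 had no read. The oxygen effect was -0.83 ± 0.59 with all libraries and -0.55 ± 0.17 without hypoxia-lactate 3, not called in either (edgeR BH-adjusted p of 0.547 and 0.0715).

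Irgm1, which regulates the others, had 30.4, 27.7 and 20.7 CPM in hypoxia-lactate, 28.1, 26.7 and 28.7 CPM in hypoxia-NaCl, 30.3, 30.2 and 36.5 CPM in normoxia-lactate and 50.5, 38.1 and 34.0 CPM in normoxia-NaCl libraries. In NaCl medium its low-oxygen libraries lay below the normal-oxygen ones, and in lactate medium the groups overlapped. Its oxygen effect was -0.43 ± 0.16 (edgeR BH-adjusted p of 0.216), and that of Igtp was -0.15 ± 0.19. Without hypoxia-lactate 3 they were -0.36 ± 0.12 and -0.03 ± 0.12.

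None of the 4 ADP-ribosyltransferase and ubiquitin ligase genes was called for oxygen by edgeR, with or without hypoxia-lactate 3. Parp9, which works with the ligase Dtx3l, had 43.7, 41.8 and 99.2 CPM in hypoxia-lactate, 49.7, 43.9 and 58.7 CPM in hypoxia-NaCl, 37.5, 37.1 and 45.8 CPM in normoxia-lactate and 42.5, 44.6 and 39.6 CPM in normoxia-NaCl libraries. Hypoxia-lactate 3 was the highest by far, and the other values overlapped between oxygen levels. The oxygen effect was 0.44 ± 0.21 with all libraries and 0.17 ± 0.11 without hypoxia-lactate 3, with edgeR BH-adjusted p of 0.341 and 0.341. Parp14, a mono-ADP-ribosyltransferase, had 103, 96.9 and 98.0 CPM in hypoxia-lactate, 119.8, 112 and 145 CPM in hypoxia-NaCl, 108, 105 and 131 CPM in normoxia-lactate and 101, 127 and 113 CPM in normoxia-NaCl libraries. Its hypoxia-lactate libraries lay below those of normoxia-lactate, its NaCl groups overlapped and its oxygen effect was -0.03 ± 0.12 with all libraries (edgeR BH-adjusted p of 0.935) and -0.03 ± 0.11 without hypoxia-lactate 3. Dtx3l and Trim30a had oxygen effects of -0.09 ± 0.17 and -0.14 ± 0.24 with all libraries and 0.0032 ± 0.13 and 0.02 ± 0.15 without hypoxia-lactate 3.

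Ifi35, which binds the protein NMI, had 21.6, 16.8 and 6.05 CPM in hypoxia-lactate, 22.1, 23.4 and 17.04 CPM in hypoxia-NaCl, 23.7, 26.1 and 25.0 CPM in normoxia-lactate and 20.6, 22.8 and 24.4 CPM in normoxia-NaCl libraries. The hypoxia-lactate libraries lay below normoxia-lactate and the NaCl groups overlapped. The oxygen effect of Ifi35 was -0.43 ± 0.25 with all libraries and -0.25 ± 0.12 without hypoxia-lactate 3, the lowest of the 12 (edgeR BH-adjusted p of 0.452 and 0.217). Xaf1, a partner of the apoptosis inhibitor XIAP, and Rtp4, a receptor transporter protein that curbs flaviviruses, had oxygen effects of 0.13 ± 0.21 and -0.21 ± 0.32 with all libraries and 0.19 ± 0.16 and -0.0045 ± 0.17 without hypoxia-lactate 3.

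Tap1, a chain of the transporter that brings peptides to MHC class I, had 40.1, 30.7 and 59.5 CPM in hypoxia-lactate, 45.3, 42.2 and 51.9 CPM in hypoxia-NaCl, 61.3, 57.5 and 48.5 CPM in normoxia-lactate and 69.6, 65.4 and 76.3 CPM in normoxia-NaCl libraries. Leaving hypoxia-lactate 3 aside, every low-oxygen library lay below every normal-oxygen library of its medium. Without that library the oxygen effect was -0.63 ± 0.11 (edgeR BH-adjusted p of 0.00542) and hypoxia-lactate against normoxia-NaCl gave -0.99 ± 0.17 (edgeR BH-adjusted p of 0.00566). With all libraries they were -0.48 ± 0.16 and -0.70 ± 0.23, and neither was called (edgeR BH-adjusted p of 0.194 and 0.128).

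**Figure D3:**
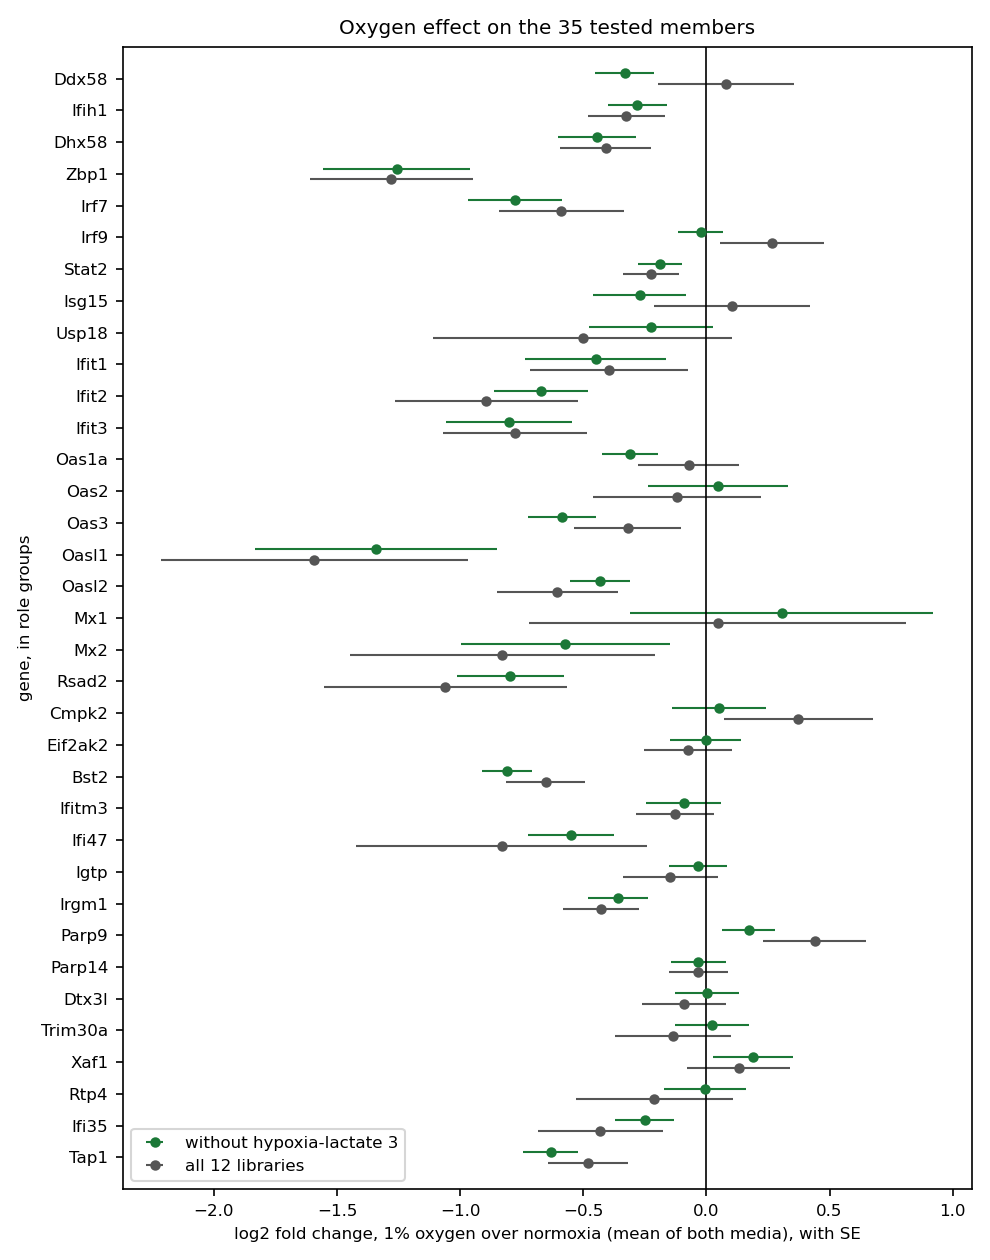
Log2 fold change of 1% oxygen over normoxia, averaged over both media, for the 35 tested genes in role groups (points, with the SE as bars), without hypoxia-lactate 3 in green and with all 12 libraries in grey. In both fits 28 of 35 points lie left of 0; Ddx58, Irf9, Isg15, Oas2, Dtx3l and Trim30a change sign between the fits, each with a value of at most 0.33 to either side of 0.

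The fold changes were also read within each medium. In lactate medium 27 of the 35 tested genes had a negative fold change for low oxygen, with a median of -0.36, and in NaCl medium 26 had one, with a median of -0.28. Lower values without overlap were found for 16 of 35 in lactate medium (11.3% of all tested genes) and for 12 of 35 in NaCl medium (12% of all tested genes). Without hypoxia-lactate 3 the lactate medium count was 20 of 35 (18.7% of all tested genes). edgeR called 0 of the 35 in either medium with all libraries, beside 0.0274% of all tested genes called lower in lactate medium and 0.0137% in NaCl medium. At an unadjusted p under 0.05, 6 were lower in lactate medium (5.32% of all tested genes) and 4 in NaCl medium (3.2% of all tested genes). DESeq2 called Zbp1 in lactate medium, beside 1.05% of all tested genes called lower, and 0 in NaCl medium. limma-voom called 0 in both, with 0.0205% of all tested genes called lower in lactate medium. Same-numbered libraries deviated together in NaCl medium. With that pairing in the fit and without hypoxia-lactate 3, edgeR called Oas3, Tap1 and Bst2 lower there, against Bst2 alone without the pairing. Over all tested genes the share called lower was 2.62% with the pairing and 0.557% without it. The oxygen effect was not shown to differ between the media: the interaction gave 0 calls with edgeR, DESeq2 and limma-voom, and 0 at an unadjusted p under 0.05, beside 1.72% of all tested genes that were lower and 1.68% that were higher at that level.

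Lactate was compared with NaCl at each oxygen level. Averaged over both levels, 29 of the 35 had a negative fold change with a median of -0.21 on the log2 scale, while over all tested genes 50.4% were negative. edgeR, DESeq2 and limma-voom each called 0 of the 35, while edgeR called 0.00684% of all tested genes lower. At an unadjusted p under 0.05, 3 were lower, beside 3.44% of all tested genes. At low oxygen 11 of 35 were lower with lactate without overlap (9.3% of all tested genes), and without hypoxia-lactate 3 18 of 35 were (16.3% of all tested genes). At normal oxygen 6 of 35 were (6.16% of all tested genes). Taken alone, neither oxygen level gave a call with edgeR, DESeq2 or limma-voom, with 3 lower at an unadjusted p under 0.05 at low oxygen (4.08% of all tested genes) and 0 at normal oxygen (0.951% of all tested genes). The comparisons share groups, so their values are not independent of each other.

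Low oxygen with lactate, set against normoxia-NaCl, gave a more negative median fold change than low oxygen did in either medium. Of the 35 tested genes 29 had a negative fold change, with a median of -0.48, and 11 were lower at an unadjusted p under 0.05, beside 8.91% of all tested genes. With all libraries edgeR called Zbp1 alone, beside 0.438% of all tested genes called lower. DESeq2 called 7 lower (Irf7, Zbp1, Oasl2, Oasl1, Ifit2, Irgm1 and Ifit3), beside 4.03% of all tested genes, and limma-voom 0, beside 0.541%. Without hypoxia-lactate 3 edgeR called 6 lower (Zbp1, Irf7, Oas3, Oasl2, Bst2 and Tap1), beside 3.26% of all tested genes. In this comparison 13 of 35 were lower without overlap, beside 11.2% of all tested genes, and 0 were higher, beside 9.39% of all tested genes. Without hypoxia-lactate 3, 17 of 35 were lower without overlap, beside 19.7% of all tested genes. By this measure low oxygen in lactate medium gave more genes, 16 of 35 with all libraries (11.3% of all tested genes). It gave 20 of 35 without hypoxia-lactate 3 (18.7% of all tested genes).

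The library hypoxia-lactate 3 was compared with hypoxia-lactate 1 and 2. On CPM plus 0.5, 7 of the 35 were more than 2-fold above the mean of hypoxia-lactate 1 and 2 in it, namely Ddx58, Irf9, Isg15, Oas1a, Oas3, Cmpk2 and Parp9, and 16.5% of all tested genes were. A further 11 were more than 2-fold below that mean, namely Usp18, Ifit2, Oas2, Oasl2, Mx1, Mx2, Rsad2, Ifi47, Trim30a, Rtp4 and Ifi35, and 30.8% of all tested genes were. Both shares, 20.0% and 31.4% of the tested members, were near those of all tested genes. Usp18, Ifi47, Oasl1, Mx1 and Mx2 had no read in it. Members of the OAS family split, with Oas3 and Oas1a above and Oas2 and Oasl2 below, and of the neighbours on chromosome 12 Cmpk2 was above and Rsad2 below.

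**Figure D4:**
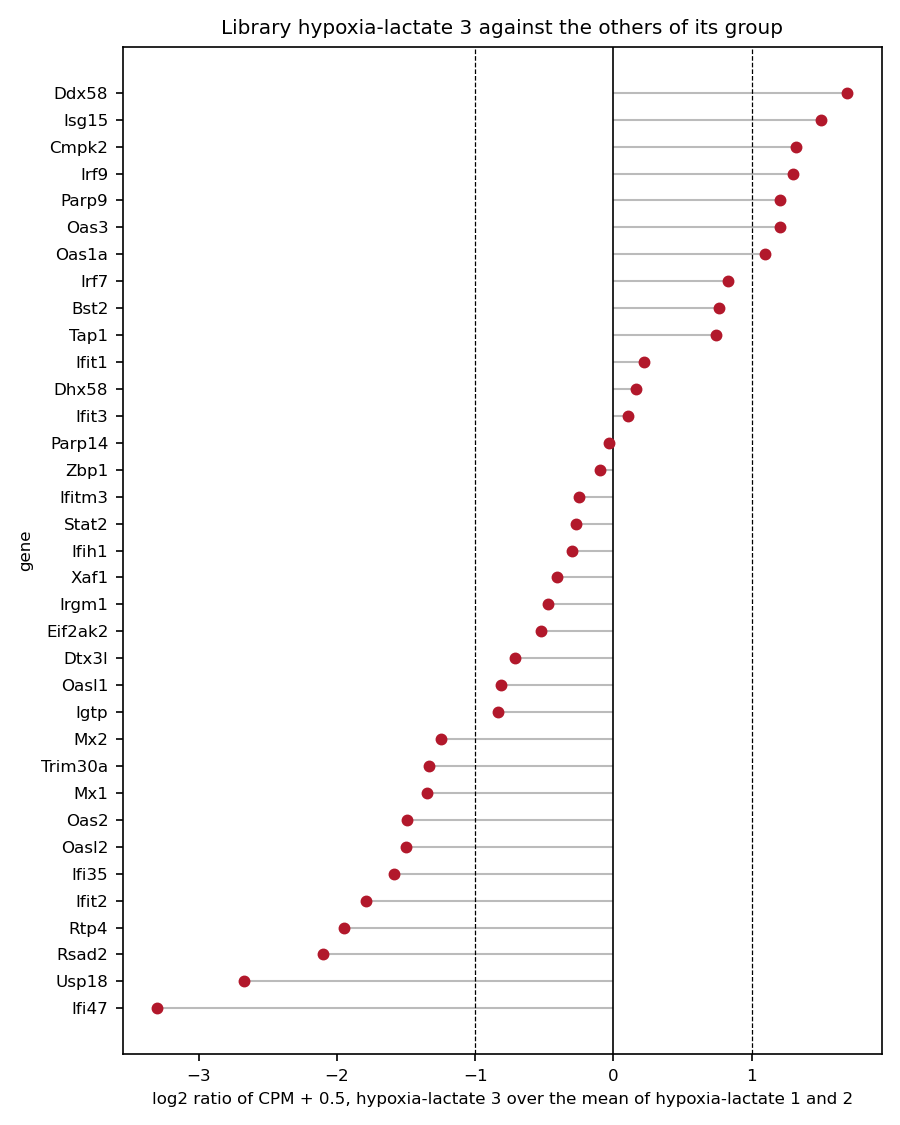
Log2 ratio of CPM + 0.5 in hypoxia-lactate 3 over the mean of hypoxia-lactate 1 and 2 for the 35 tested genes, sorted; dashed lines mark 2-fold. Ratios run from -3.30 for Ifi47 to 1.69 for Ddx58, with 11 genes below the lower line and 7 above the upper line.

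Per length, levels in normoxia-NaCl spanned a wide range. Ifitm3 averaged 535 CPM per kilobase of exon, Bst2 71.2, Oas3 38.4 and Oas1a 18.6, while Oasl1 averaged 0.548, Mx2 0.284 and Mx1 0.167 on the same scale. The library ranges of Ifitm3, Bst2, Oas3 and Oas1a did not overlap each other. Next in order came Ifi35, Tap1, Stat2 and Parp14, at 13.1, 12.9, 12.3 and 12.2 CPM per kilobase, and their ranges did overlap.

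The genes around the programme were read from lists of its other parts. Of 11 interferon genes, 8 had an identifier, and together they held 3 reads over all 12 libraries, all from Ifnk in normoxia-NaCl 3, so none of these 8 was detectable beyond that at this depth. Among the receptors' kinases, Jak2 had an oxygen effect of 0.37 ± 0.17 and was not called (edgeR BH-adjusted p of 0.340). The receptor chain Ifnar1 averaged 133 ± 10.9 CPM in hypoxia-lactate, 135 ± 14.6 CPM in hypoxia-NaCl, 130.1 ± 11.2 CPM in normoxia-lactate and 124 ± 31.9 CPM in normoxia-NaCl libraries (SD, n = 3 each).

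Upstream of interferon, all 15 listed genes were tested, edgeR, DESeq2 and limma-voom each called 0 with all libraries (1 lower and 3 higher at an unadjusted p under 0.05) and the median was 0.13. With oxygen averaged over both media, 6.69% of all tested genes were lower and 8.48% higher at that unadjusted level. The values farthest above 0 were the adaptor Myd88 at 0.66 ± 0.26 and the kinase Tbk1 at 0.47 ± 0.16, and for Myd88 it was 0.25 without hypoxia-lactate 3. Without hypoxia-lactate 3 Mavs, the adaptor of the RNA sensors, fell by 0.40 and Unc93b1, the chaperone of endosomal Toll-like receptors, fell by 0.40, with edgeR BH-adjusted p of 0.0287 and 0.0463. Of 10 genes that restrain the pathway, 9 were tested and edgeR and limma-voom called 0 (1 lower and 2 higher at an unadjusted p under 0.05) and DESeq2 called Ptpn2 and Samhd1 higher. The shares of all tested genes just given stand beside these unadjusted counts too. With oxygen averaged over both media DESeq2 called 515 of all 14616 tested genes higher. Socs1 was at -1.41 ± 0.61 and Ptpn2, a phosphatase that acts on JAK kinases, at 0.61 ± 0.17. The Socs1 value rested on 0 to 47 reads a library and ran from -2.62 to -1.12 with 1 library left out. Without hypoxia-lactate 3 Ptpn2 rose, by 0.55 ± 0.13 (edgeR BH-adjusted p of 0.0241).

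Among 36 further interferon-stimulated genes, 35 were tested, 24 were negative and the median was -0.11. Lgals9, or galectin-9, had 9.46, 12.6 and 7.18 CPM in hypoxia-lactate, 22.9, 24.2 and 27.9 CPM in hypoxia-NaCl, 22.8, 32.7 and 25.6 CPM in normoxia-lactate and 45.6, 55.1 and 37.6 CPM in normoxia-NaCl libraries. Its oxygen groups did not overlap in either medium nor did its lactate groups at either oxygen level. Lgals9 fell with oxygen averaged over both media (-1.18 ± 0.18, edgeR BH-adjusted p of 0.00692). Lgals3bp, a secreted galectin-binding protein, had 185, 173 and 124 CPM in hypoxia-lactate, 240.2, 246 and 214 CPM in hypoxia-NaCl, 293, 291 and 241 CPM in normoxia-lactate and 409.7, 320.0 and 307 CPM in normoxia-NaCl libraries. The hypoxia libraries lay below normoxia in both media. Lgals3bp fell too (-0.67 ± 0.14, edgeR BH-adjusted p of 0.0360), a call lost in 10 of 22 alternatives, 9 of which left out 1 library of another group than hypoxia-lactate, while its fold change ran only from -0.74 to -0.53. Without hypoxia-lactate 3 Epsti1 also fell (-0.94 ± 0.21) and Tdrd7 rose (0.35 ± 0.09), with edgeR BH-adjusted p of 0.0191 and 0.0412.

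Of 26 genes that answer mainly to interferon gamma, 23 were tested, 15 were negative, the median was -0.13 and edgeR and limma-voom called 0 (4 lower and 2 higher at an unadjusted p under 0.05), while DESeq2 called Tap2 lower. With oxygen averaged over both media, 6.69% of all tested genes were lower and 8.48% higher at that unadjusted level. DESeq2 called 2.35% of all tested genes lower there. The values farthest above 0 were the guanylate-binding proteins Gbp3 at 1.55 ± 0.66 and Gbp4 at 0.96 ± 0.79. Each rested on 1 library: Gbp3 was 0.15 without hypoxia-lactate 3, and Gbp4 was -0.74 without hypoxia-lactate 1. Without hypoxia-lactate 3 Tap2, the partner chain of Tap1, fell with oxygen averaged over both media (-0.49 ± 0.11, edgeR BH-adjusted p of 0.0163). Psme1, Psme2, Psmb10 and Tapbpl, proteasome and peptide-loading genes, were then called lower by edgeR in hypoxia-lactate than in normoxia-NaCl, at log2 fold changes of -0.68, -0.92, -1.08 and -0.93.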

How the data were processed

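Poly(A) RNA of mouse macrophage cultures was sequenced as 12 libraries on an Ion Proton, per the labels' protocols. The deposited values are raw read counts per gene that the authors made with BWA, HTSeq and the mm9 build, per the submitters' processing notes; the labels name no tool version, annotation release or strand setting. Reads of close copies and of overlapping genes may therefore be split or shared. HTSeq's counter lines, 31.7% to 37.4% of all reads, entered neither library sizes nor tests.

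Counts were tested with edgeR 4.0.16 in R 4.3.3 (quasi-likelihood F test, two-sided, TMM scaling, filterByExpr, a mean per group over all 12 libraries), with Benjamini-Hochberg adjustment over all 14616 tested genes and a threshold of 0.05. Fits that left libraries out were filtered and adjusted anew, over 15088 genes without hypoxia-lactate 3. The shares of all tested genes without overlap between groups were taken over the 14616 genes throughout. The SE is the log2 fold change divided by the square root of F. A limit for a count of 0 is 3 reads of the library, and intervals and limits cover counting error only. DESeq2 1.42.0, limma-voom (limma 3.58.1), other scalings, filters, a replicate block and each library left out in turn were alternatives. The scripts were tested on simulated data, where edgeR recovered all seeded genes in the averaged oxygen comparison. That simulation had no outlying library and less spread than these libraries. It seeded only abundant genes, with larger fold changes than most members had, so it does not measure power for these genes.

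The members and gene lists were chosen with earlier results of these data known. Full values are given for genes past the threshold in the fit of all libraries or without hypoxia-lactate 3, and for the gene with the highest mean CPM and the gene with the largest oxygen effect of each role group. Ifit3 was added after its values were seen. The list of receptors and signalling genes is given only in part, and the rest of it is not reported here. Replicate numbers come from the labels, which name no shared mouse or batch. Same-numbered libraries deviated together in hypoxia-NaCl against normoxia-NaCl (correlations of 0.138 to 0.315 for every pair), and in no other comparison did every pair pass 0.1. These correlations were taken with hypoxia-lactate 3 included. The libraries numbered 2 also shared neutrophil transcripts in all 4 groups, so whether numbers pair libraries in the other comparisons is not settled. The main fits hold no pairing.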

Additional observations from a re-analysis of the deposited data

How the results depend on the processing

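With all libraries, edgeR called 0 of the 35 tested genes in each comparison other than low oxygen with lactate against normoxia-NaCl, where it called Zbp1. That last count was 0 with RLE factors, with no filter, with limma-voom and with only the groups compared fitted. It was also 0 with a mean of at least 5 CPM, but Zbp1 did not pass that filter and was not tested there. The count was 3 with upper-quartile factors, 6 with limma-voom quality weights, 7 with DESeq2, 7 without hypoxia-lactate 3 and normoxia-NaCl 1, and 10 with the replicate block and without hypoxia-lactate 3. Under the last 4 of these the share of all tested genes called lower was 2.83% to 7.3%, and with upper-quartile factors 0.541%. For oxygen averaged over both media it was 1 with upper-quartile factors, 1 with a mean of at least 5 CPM, 1 with limma-voom, 3 with DESeq2, 9 with quality weights, 6 without both libraries and 11 with the block and without hypoxia-lactate 3, while the share of all tested genes called lower was 6.92%, 4.2% and 7.71% under the last 3 settings, against 0.26% in the fit of all libraries. Among those 11 were Ifit2 and Ifit3 (edgeR BH-adjusted p of 0.0429 and 0.0319). The share of all tested genes called lower was 0.26% with upper-quartile factors and 0.467% with a mean of at least 5 CPM. It was 0.356% with limma-voom and 2.35% with DESeq2. For low oxygen in NaCl medium the count was 3 with quality weights, 1 without both libraries and 3 with the block and without hypoxia-lactate 3. The shares of all tested genes called lower were 1.43%, 0.243% and 2.62%, against 0.0137% in the fit of all libraries. In lactate medium the count was 1 with DESeq2, 3 with quality weights, 2 without both libraries and 2 with the block and without hypoxia-lactate 3. There the shares were 1.05%, 1.72%, 0.945% and 0.663%, against 0.0274%. For lactate averaged over both oxygen levels the count was 2 with quality weights and 1 with the block and without hypoxia-lactate 3. The shares there were 0.609% and 0.954%, against 0.00684%. The replicate block with all libraries left every count as it was, 1 for both together and 0 elsewhere. With 1 library left out at a time the counts ran from 0 to 6 for both together, from 0 to 6 for oxygen averaged, and from 0 to 1 for low oxygen in NaCl medium, low oxygen in lactate medium and lactate averaged, and each highest count came without hypoxia-lactate 3. The count of genes lower in both media without overlap was 3 with a mean of at least 5 CPM, where fewer genes were tested, 13 without both libraries, and 7 to 11 with 1 library left out. Of all tested genes 6.88% were so ordered without both libraries and 5.52% without hypoxia-lactate 3, where the count was 11, against 3% with all 12. The share under the other settings is not given.

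For oxygen averaged over both media, Ddx58 turned to -0.058 with upper-quartile factors, -0.083 with limma-voom, -0.24 with quality weights, -0.34 without both libraries and -0.31 with the block and without hypoxia-lactate 3. Isg15 turned to -0.029, -0.042, -0.19, -0.21 and -0.29 under the same settings. Ifitm3 turned to 0.037 without both libraries and Parp14 to 0.00105 with the block and without hypoxia-lactate 3. With 1 library left out, Ddx58 ran from -0.33 to 0.22, Isg15 from -0.27 to 0.27, Ifitm3 from -0.20 to 0.00096, Parp14 from -0.092 to 0.014 and Gbp4 from -0.74 to 1.34. The cause was not tested. Upper-quartile factors shifted the median of all genes by -0.13 for low oxygen in lactate medium and by -0.12 for both together. Low counts limit Mx1, Mx2, Oasl1, Ifi44 and Socs1 and leave the interferon genes untested.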
